A study of Homo sapiens with 24 samples.

Results

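RPMI-8402 is an established human line of T-cell acute lymphoblastic leukaemia (T-ALL), a cancer of immature T cells, and its baseline expression was set against that of TALL-1, SUPT11 and P12-ICHIKAWA, which are T-ALL lines too. The samples were chosen by their titles: 3 DMSO arrays of RPMI-8402 and 9 DMSO arrays of the other lines (3 each), out of 24 arrays in the series. These samples had received the solvent DMSO at 0.5% for 16 h. The other 12 arrays came from the same lines given NVS-ZP7-3, an inhibitor of the zinc transporter SLC39A7 (ZIP7), and are used here as further arrays of each line and for the change of a few differences with treatment. Each line is 1 established culture, and the labels do not say that replicates came from separate cultures, so the p-values reflect only how far these arrays vary, and that variation may be technical.

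T-ALL is commonly sorted by the transcription factor that is switched on in the leukaemic cells. TAL1 and LYL1 are related basic helix-loop-helix factors that pair with TCF3 or TCF12 proteins and assemble with LMO and GATA proteins on DNA. The homeobox factors TLX1, TLX3 and NKX2-1 and the HOXA group mark other classes. Some of the factors named here are active in blood progenitors and are shut off as thymocytes mature. RPMI-8402 is known for a translocation that places LMO1 beside a T cell receptor locus.

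Values are log2 expression on Affymetrix arrays, with 1 probe set (the brightest that names a single gene) standing for a gene. A value of 2.18 is the floor, the lowest level given to probe sets with no signal. A difference from a line at the floor is a distance to that floor. Some probe sets repeated a higher value across arrays, such as HES1 at 5.17 on each SUPT11 array. Such a value may be the probe set's own level of no signal, which was not tested. Tests used limma with Benjamini-Hochberg adjustment over 10443 genes, and a gene was called when its adjusted p was below 0.05. Differences are RPMI-8402 minus the mean of the other 3 line means unless a line is named. A gene is described as set apart when it was called against each of the 3 lines in the same direction and differed by at least 1 from each.

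One RPMI-8402 array held transcripts of mature blood cells. HBB, a beta-globin gene of red cells, measured 9.42, 2.32 and 14.65 on RPMI-8402 DMSO replicates 1, 2 and 3, against 2.18 to 2.32 on the 9 other DMSO arrays. Of 17 measured myeloid markers, 11 were at 4 or more on replicate 3, against 1 on replicate 1, 0 on replicate 2 and at most 1 on any array of the other lines. Their log2 values above the floor summed to 2.44, 1.08 and 64.5 on the RPMI-8402 arrays, against 0.344 to 6.88 on the others, while MPO, an enzyme of immature myeloid cells, stayed at the floor on all 12. The summed erythroid list (9 genes) was 17.4, 10.4 and 34.8 on the RPMI-8402 arrays, against 8.7 to 10.0, and the NK and cytotoxic list (9 genes) 16, 15.8 and 35.7, against 6.48 to 21.4. The B cell list (8 genes) summed to 9.46 to 11.2 in RPMI-8402 and 4.41 to 11.5 in the other lines, and the platelet list (6 genes) to 5.02 to 7.13 and 2.13 to 7.34. Across all measured genes, 91 were at least 2 higher on replicate 3 than on both other RPMI-8402 arrays, against 0 such genes for replicate 1 and 4 for replicate 2. None of the 91 was among the genes set apart as higher. They were counted over all measured genes, while a tested gene had to reach log2 4 on at least 3 DMSO arrays. A gene at that level on replicate 3 alone could therefore not be set apart. Where leaving replicate 3 out moved the counts of a list described below, both are given, and for some named genes both values. Other named differences moved too, such as HCLS1 (−8.49, and −9.95 without replicate 3) and HLA-B (1.63 and 1.36).

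**Figure D1:**
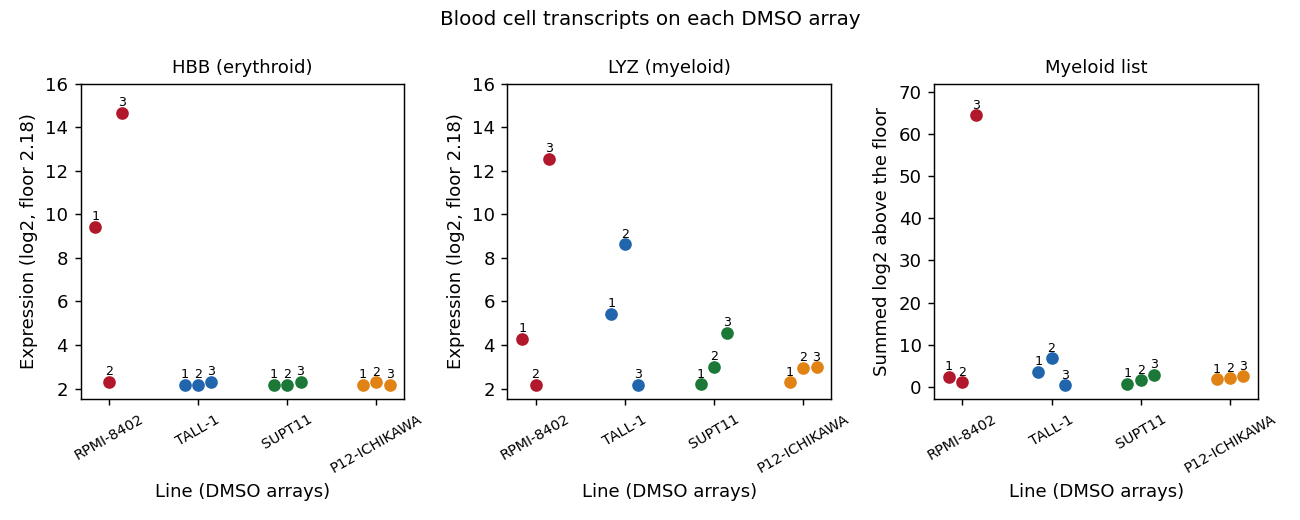
Log2 expression of HBB and LYZ, and the summed log2 above the floor of 17 myeloid markers, on each DMSO array (points, numbered by replicate; RPMI-8402 at the left of each panel). RPMI-8402 replicate 3 is the highest point of every panel, with HBB at 14.65 and LYZ at 12.54, and replicate 1 also carries HBB.

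RPMI-8402 differed from the other lines across most of the measured transcriptome. Of 10443 genes, 3944 were called higher (37.8%) and 3689 lower (35.3%), 73.1% in all. Without replicate 3 the shares were 35.8% higher and 32.6% lower, 68.3% in all. By line, 69.2% of genes were called against TALL-1, 78.2% against SUPT11 and 62% against P12-ICHIKAWA. A called gene is therefore the usual case here, and counts of called list members below are to be read beside these shares. The set-apart rule is the stricter description. It held for 511 genes that were higher in RPMI-8402 than in each line (4.89%) and 284 that were lower (2.72%). The same rule gave 418 higher (4%) and 533 lower genes (5.1%) in TALL-1, 1105 (10.6%) and 811 (7.77%) in SUPT11, and 270 (2.59%) and 283 (2.71%) in P12-ICHIKAWA. Without RPMI-8402 replicate 3, 518 genes (4.96%) were set apart as higher and 279 (2.67%) as lower, of which 504 and 268 were the same genes. No array of another line reached log2 4 for 237 of the 511 higher genes, which thus entered the test through RPMI-8402 alone and could only be higher there.

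**Figure D2:**
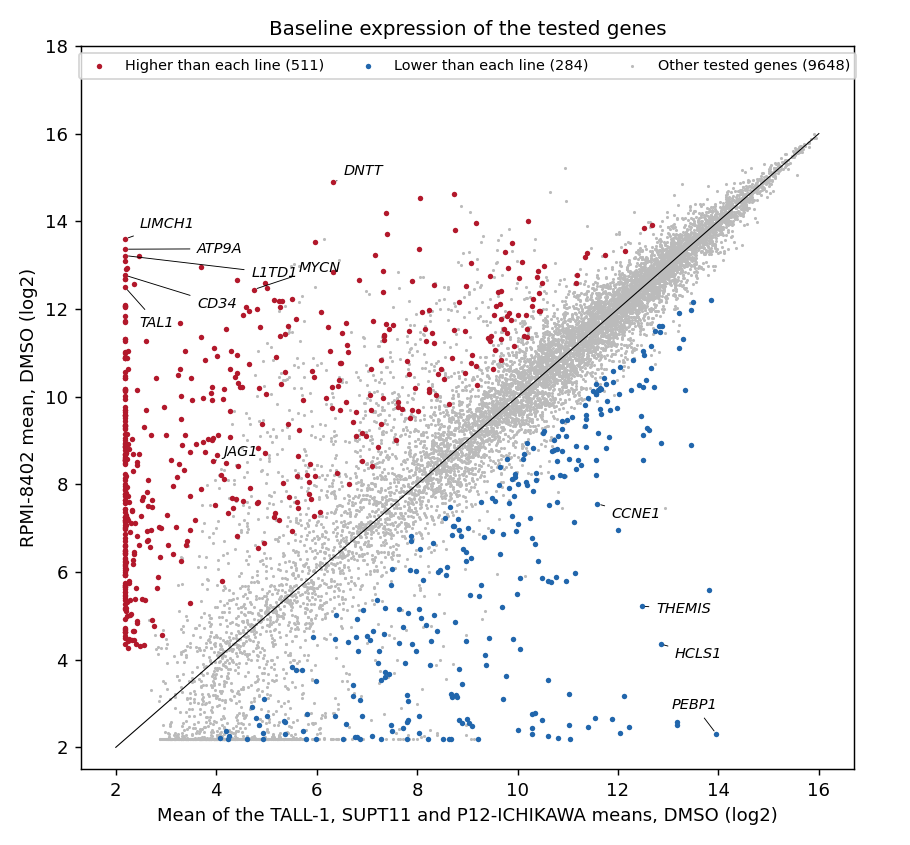
Mean log2 expression of the 10443 tested genes in RPMI-8402 (vertical axis) and the mean of the other 3 line means (horizontal axis), DMSO arrays. Red points are the 511 genes set apart as higher in RPMI-8402, blue points the 284 set apart as lower, and the diagonal marks equal levels; LIMCH1, ATP9A, L1TD1, CD34 and TAL1 stand at the floor of the other lines, and PEBP1 at the floor of RPMI-8402.

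RPMI-8402 correlated most with P12-ICHIKAWA and least with SUPT11. Correlations of RPMI-8402 arrays across the 10443 genes were 0.855 to 0.865 with P12-ICHIKAWA, 0.803 to 0.81 with TALL-1 and 0.715 to 0.726 with SUPT11, against 0.993 to 0.998 among the RPMI-8402 arrays; all arrays share 1 normalization, and genes are not independent. With "on" as a line mean of 6 or more and "off" as one below 3, 164 genes were on in RPMI-8402 and off in the other 3 lines, and 31 were off in RPMI-8402 and on in the others. RPMI-8402 shared 67 on genes with SUPT11 alone, 61 with P12-ICHIKAWA alone and 23 with TALL-1 alone. It shared 27 off genes with P12-ICHIKAWA alone, 15 with TALL-1 alone and 5 with SUPT11 alone.

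The 5 genes that mark RPMI-8402 were each above 12 on all 3 of its arrays and at the floor on all 9 arrays of the other lines. LIMCH1, which encodes an activator of nonmuscle myosin, measured 13.58, 13.61 and 13.60 in RPMI-8402 (difference 11.41 ± 0.03, SE; adjusted p = 4.74e-18). ATP9A, a P4-type ATPase of endosomal membranes, measured 13.26, 13.36 and 13.47 (difference 11.18 ± 0.04). L1TD1, an RNA-binding protein known from pluripotent stem cells and derived from a LINE-1 element, measured 13.22, 13.30 and 13.13 (difference 11.04 ± 0.04). TAL1 measured 12.68, 12.33 and 12.48 (difference 10.32 ± 0.06; adjusted p = 4.06e-16). HHEX, a homeobox factor of blood and endothelial progenitors, measured 12.75, 12.49 and 12.80 (difference 10.50 ± 0.06). The other ATP9A probe set did not pass the filter on low values. Of 3 other probe sets each, 1 passed for TAL1 and 2 for LIMCH1, and L1TD1 and HHEX each had 1 other, which passed. All that passed had the same sign. These 5 genes were picked with earlier results of these arrays known, so their pattern is a description of the line. Genes at the floor in some lines have almost no spread there, which makes their standard errors and p-values too small for the line that expresses them.

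The sequence just before the start of 3 of these genes is shown because they contrast in base composition and in the letters bound by GATA and basic helix-loop-helix proteins. They are 250 bases in the gene's sense, 5′ to 3′, from RefSeq on GRCh38.p14 (of several starts, the one with most CpG pairs), with such letters in capitals: TAL1 at chr1:47232336-47232585 (minus strand, 1 of 2 listed starts), LIMCH1 at chr4:41360557-41360806 (plus strand, 1 of 4 listed starts) and L1TD1 at chr1:62194599-62194848 (plus strand).
TAL1: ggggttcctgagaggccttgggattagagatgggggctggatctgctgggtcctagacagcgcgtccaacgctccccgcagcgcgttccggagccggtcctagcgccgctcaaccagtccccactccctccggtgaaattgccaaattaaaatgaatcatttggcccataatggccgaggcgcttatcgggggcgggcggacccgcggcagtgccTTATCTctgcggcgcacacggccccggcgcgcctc
LIMCH1: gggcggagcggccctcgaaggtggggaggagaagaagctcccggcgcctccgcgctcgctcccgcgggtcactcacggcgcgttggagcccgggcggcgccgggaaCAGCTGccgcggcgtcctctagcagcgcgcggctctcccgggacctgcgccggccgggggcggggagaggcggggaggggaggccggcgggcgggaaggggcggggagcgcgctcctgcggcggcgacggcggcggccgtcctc
L1TD1: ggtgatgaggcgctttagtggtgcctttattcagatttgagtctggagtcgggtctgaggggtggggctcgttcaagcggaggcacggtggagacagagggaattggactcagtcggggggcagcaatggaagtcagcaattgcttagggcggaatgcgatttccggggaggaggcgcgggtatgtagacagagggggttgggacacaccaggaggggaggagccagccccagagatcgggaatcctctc
TAL1 held the GATA letters TTATCT beginning 35 bases before its start, and 24 CpG pairs. LIMCH1 held the E-box CAGCTG 144 bases before its start and 42 CpG pairs, while L1TD1 held neither kind of letters and 12 CpG pairs. ATP9A (57 CpG pairs) and HHEX (38 CpG pairs), whose promoters are not printed, held neither kind as well, so 3 of the 5 markers lacked the letters. Over all genes, the GATA letters, which read AGATAA on one strand and so TTATCT on the other, stood in 8.04% of the 398 promoters found for genes set apart as higher, 3.4% of the 235 found for genes set apart as lower, and 3.6% of the 8644 found for tested genes. The E-box letters, either CAGATG (on the opposite strand CATCTG) or the palindrome CAGCTG on either strand, stood in 20.6% of the promoters of higher genes, 17.4% of lower genes and 17.6% of tested genes. CpG content moved with the first set: its lower quartile was 12 pairs in genes set apart as higher and 17 in tested genes, with medians of 22 and 23. Of all 35116 listed promoters, whose median was 11 CpG pairs, 9.17% held the GATA letters. That share counts every listed start and genes that were not tested. The other shares use the start with most CpG pairs for each gene, so the bases differ. Of the 511 genes set apart as higher, 237 entered the test through RPMI-8402 alone, so the filter shaped that set too. The parts of base composition and of the filter in the shares were not tested, and a match of letters is not a binding site.

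The T-ALL transcription factors were the gene list with the most members set apart as higher in RPMI-8402. Of 23 listed genes, 20 had a probe set of their own and 13 were tested, 7 of them because of the RPMI-8402 arrays alone; 10 were called higher, 2 lower and 9 were set apart as higher. Since those 7 could only be higher in RPMI-8402, and TAL1 and HHEX were chosen as its markers, the list's counts and its median difference of 6.74 (0.0098 over all tested genes) describe the choice and the filter as well as the line. LMO1, the LIM-only partner of TAL1, measured 9.41, 9.71 and 9.62 in RPMI-8402 and was at the floor on all 9 other arrays (difference 7.40 ± 0.05; adjusted p = 1.75e-15). LYL1 measured 8.01, 7.84 and 7.74 in RPMI-8402, again with the other lines at the floor (difference 5.68 ± 0.05). Thus TAL1, LMO1 and LYL1 were measured together in RPMI-8402 and in no other line.

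NKX2-1 and ERG showed the same on and off pattern. NKX2-1, best known from lung and thyroid, measured 12.65, 12.81 and 12.55 in RPMI-8402, and ERG, an ETS factor of blood stem cells, 13.11, 12.61 and 13.05, while the other lines lay at 2.18 to 2.26 for both. The other NKX2-1 probe set did not pass the filter on low values, whereas all 3 other ERG probe sets passed and pointed the same way. MECOM, a stem-cell zinc-finger factor, measured 13.21, 13.15 and 13.29 in RPMI-8402 and 2.18 to 3.29 elsewhere. MEF2C measured 11.09, 10.98 and 11.05 in RPMI-8402, against 8.42, 8.73 and 8.50 in SUPT11 and the floor in TALL-1 and P12-ICHIKAWA, so it was graded rather than limited to 1 line. MYCN likewise stood at 12.47, 12.49 and 12.36 in RPMI-8402, 9.89, 9.74 and 9.62 in P12-ICHIKAWA and 2.22 to 2.28 in the other lines, and none of its 9 other probe sets passed the filter. MEIS1, a HOXA cofactor named here after its values were seen, measured 6.39, 6.14 and 7.3 in RPMI-8402 and lay at the floor in the others. TLX1 and TLX3 were at the floor in all 4 lines, and HOXA9, HOXA10, HOXA11 and RUNX1 had no probe set of their own. LMO2, the relative of LMO1, was at the floor on the RPMI-8402 arrays and measured 12.54, 12.35 and 12.23 in P12-ICHIKAWA alone.

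Partners and targets of the TAL1 complex did not stand apart as a list: of 13 listed genes, 11 were tested, 5 were called higher (4 without replicate 3), 3 lower and none was set apart (median difference 0.020). TCF3, the partner of TAL1, measured 15.38, 15.42 and 15.40 in RPMI-8402 and 15.31 to 15.45 on the other arrays, with a difference of 0.020 ± 0.033 (adjusted p = 0.609). ALDH1A2, a retinoic acid enzyme that TAL1 and LMO proteins activate in T-ALL, measured 13.03, 12.98 and 12.96 in RPMI-8402, 12.09, 12.18 and 11.99 in P12-ICHIKAWA and 2.18 to 2.20 in TALL-1 and SUPT11. RPMI-8402 thus shared ALDH1A2 with P12-ICHIKAWA, which had LMO2 but had TAL1, LYL1 and LMO1 at the floor. Whether any of these factors bears on ALDH1A2 was not tested. STIL, the neighbour of TAL1 whose promoter a small deletion joins to TAL1 in some T-ALL, measured 12.27, 12.30 and 12.37 in RPMI-8402. It stood at 13.33, 13.44 and 13.57 in TALL-1, 13.01, 12.95 and 12.86 in SUPT11 and 13.22, 13.34 and 13.38 in P12-ICHIKAWA (difference −0.92 ± 0.06; adjusted p = 1.43e-07). STIL was therefore lower in RPMI-8402 than on every other array, by less than 1 against SUPT11. MYB, another TAL1 target, measured 14.82, 14.80 and 14.91 in RPMI-8402, against 14.75 to 14.87 in TALL-1, 14.76 to 14.89 in P12-ICHIKAWA and 10.00, 10.24 and 10.40 in SUPT11, so it overlapped both of the lines with high levels.

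**Figure D3:**
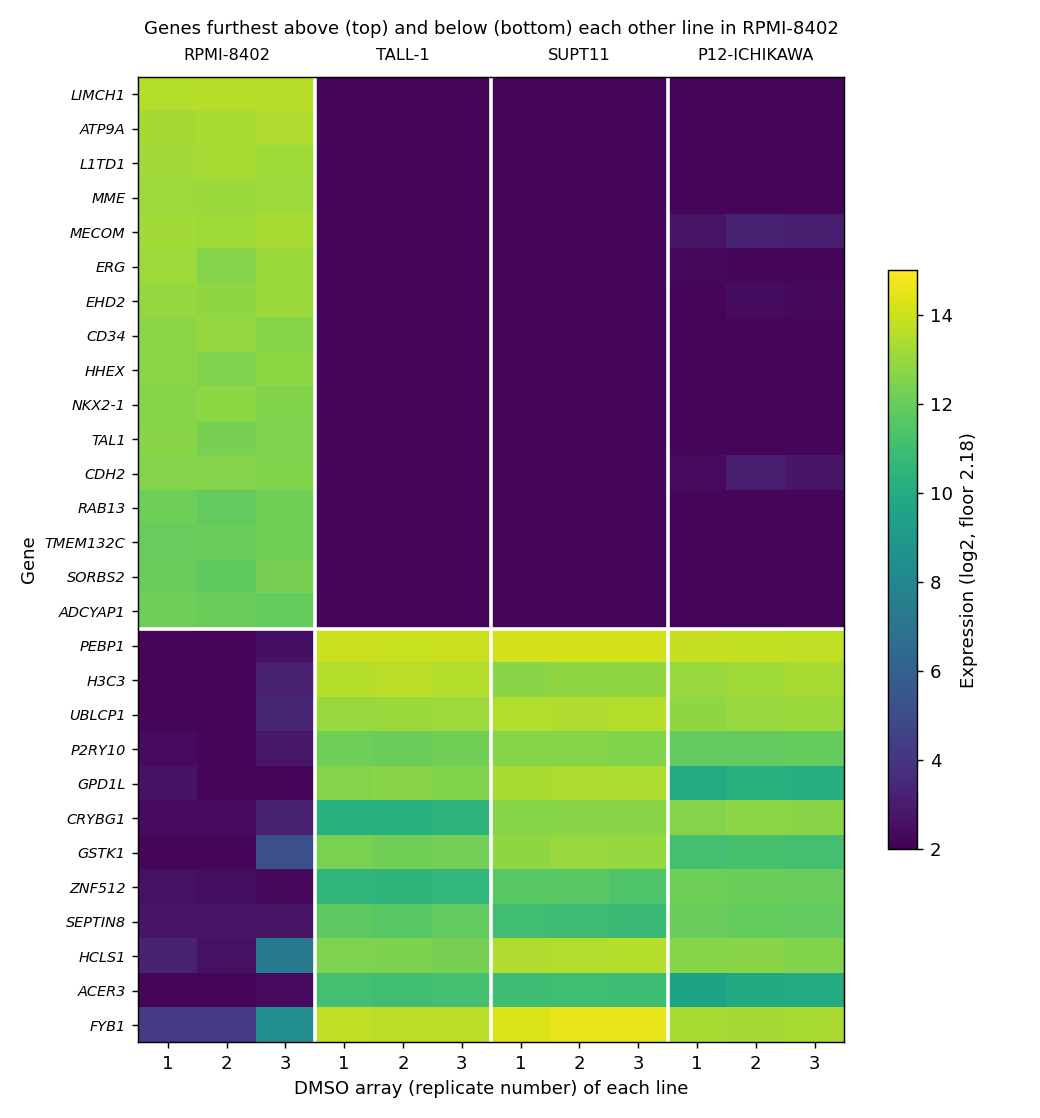
Log2 expression (colour, floor 2.18) of the 16 genes furthest above and the 12 genes furthest below the nearest other line in RPMI-8402, on each of the 12 DMSO arrays. RPMI-8402 is the left block of 3 arrays; its replicate 3 is higher than replicates 1 and 2 for FYB1, HCLS1 and GSTK1, and the upper genes lie at or near the floor in the other lines, with MECOM and CDH2 reaching 3.29 and 3.09 in P12-ICHIKAWA.

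CD34, MME and NFE2 were high in RPMI-8402 alone, and CD7 was lower there than in each other line. Of 20 listed progenitor and early thymocyte genes, 19 had a probe set and 15 were tested, 4 of them through RPMI-8402 alone; 10 were called higher and 3 lower (9 and 4 without replicate 3), 5 were set apart as higher and 1 as lower (median difference 1.54). CD34, the surface marker of blood progenitors, measured 12.77, 12.93 and 12.62 in RPMI-8402 and the floor on all 9 other arrays (difference 10.59 ± 0.06). MME, which encodes CD10 of early lymphoid cells, measured 13.11, 13.06 and 13.11 in RPMI-8402 and the floor elsewhere. NFE2, a factor of the erythroid and megakaryocyte lineage, measured 8.74, 9.06 and 8.97 in RPMI-8402 and 2.18 to 2.47 elsewhere, without the excess on replicate 3 that HBB had. CD7, an early T cell surface protein named after its values were seen, went the other way: it measured 5.45 on all 3 RPMI-8402 arrays, against 10.93, 10.77 and 10.72 in TALL-1, 8.40, 8.48 and 8.54 in SUPT11 and 8.37, 8.51 and 8.38 in P12-ICHIKAWA (difference −3.79 ± 0.05). The repeated value of 5.45 may be the CD7 probe set's own level of no signal, so that difference may be a distance to it. The progenitor genes KIT, FLT3, PROM1 and TYROBP did not pass the filter on low values.

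Most tested T cell genes differed between RPMI-8402 and the mean of the other lines, in both directions, as did 73.1% of all tested genes. THEMIS, RUNX3, SATB1, LAT and PTPN22 were lower than in each line. CD3D and BCL11B, named after their values were seen, were not called. CD3D measured 14.64, 14.67 and 14.59 in RPMI-8402 and 14.12 to 14.90 elsewhere (difference 0.06 ± 0.04; adjusted p = 0.194), and BCL11B, a factor of T cell commitment, 14.39, 14.22 and 14.39 against 14.09 to 14.34 (difference 0.11 ± 0.05; adjusted p = 0.065). CD3E, another chain of the receptor complex, was lower by a little: 12.22, 12.18 and 12.36 in RPMI-8402 and 12.34 to 13 elsewhere (difference −0.41 ± 0.05; adjusted p = 2.39e-05). Of 18 listed T cell receptor signalling genes, 15 were tested, 7 were called higher and 6 lower, and THEMIS, LAT and PTPN22 were set apart as lower (median difference 0.037). THEMIS, which tunes receptor signals in thymocytes, measured 4.92, 5.90 and 4.84 in RPMI-8402, against 12.88, 12.93 and 13.25 in TALL-1, 12.09, 11.96 and 12.01 in SUPT11 and 12.29, 12.38 and 12.45 in P12-ICHIKAWA (difference −7.25 ± 0.19; adjusted p = 5.83e-11). The receptor adaptor LAT, named after its values were seen, measured 9.43, 9.78 and 9.61 in RPMI-8402 and 10.74 to 12.68 elsewhere, with no overlap. FYB1, an adaptor that couples the receptor to integrins, measured 4.15, 4.21 and 8.38 in RPMI-8402 and 13.24 to 14.54 elsewhere. Replicate 3 alone held the higher FYB1 value, and without it the difference was −9.63 in place of −8.23.

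Among T lineage transcription factors, 16 of 22 listed genes were tested, 5 were called higher and 7 lower, and RUNX3 and SATB1 were set apart as lower (median difference −0.067). RUNX3, a factor of CD8 T cells, measured 3.07, 3.91 and 4.36 in RPMI-8402, against 11, 10.75 and 10.94 in TALL-1, 9.80, 9.98 and 9.87 in SUPT11 and 5.89, 5.93 and 5.38 in P12-ICHIKAWA (difference −5.06 ± 0.22). SATB1, a chromatin organizer of thymocytes, measured 9.14, 9.32 and 8.76 in RPMI-8402 and 11.64 to 12.07 elsewhere. BCL11A, a factor of lymphoid progenitors, measured 10.99, 10.79 and 11.03 in RPMI-8402, below TALL-1 (13 to 13.27) and P12-ICHIKAWA (13.54 to 13.67) and above SUPT11, where it lay at the floor.

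Most tested cortical thymocyte genes were called lower in RPMI-8402, with DNTT the only one set apart, as higher. Of 21 listed genes, 19 had a probe set and 18 were tested. Among these, 12 were called lower and 4 higher (median difference −0.90), beside 35.3% lower and 37.8% higher over all genes. CD1A, a lipid-presenting molecule of cortical thymocytes, was at the floor on all RPMI-8402 and SUPT11 arrays and measured 10.65, 10.23 and 10.40 in TALL-1 and 10.70, 10.94 and 11.03 in P12-ICHIKAWA. CD1B and CD1E were at the floor in RPMI-8402 too and above 13 in P12-ICHIKAWA alone. DNTT, the polymerase that adds bases at receptor gene joints, measured 14.88, 14.89 and 14.91 in RPMI-8402, against 13.22, 12.87 and 12.98 in TALL-1, the floor in SUPT11 and 4.88, 3.49 and 2.96 in P12-ICHIKAWA (difference 8.57 ± 0.30). RAG1, which cuts the receptor genes, measured 8.10, 8.07 and 7.98 in RPMI-8402, between P12-ICHIKAWA (14.72 to 14.90) and the other 2 lines. It differed by 1.24 from the mean of the other lines, and its other probe set had the opposite sign. CD8A measured 2.18, 2.18 and 4.26 in RPMI-8402 and 11.95 to 12.04 in TALL-1, with a difference of −3.55 with replicate 3 and −4.24 without it.

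**Figure D4:**
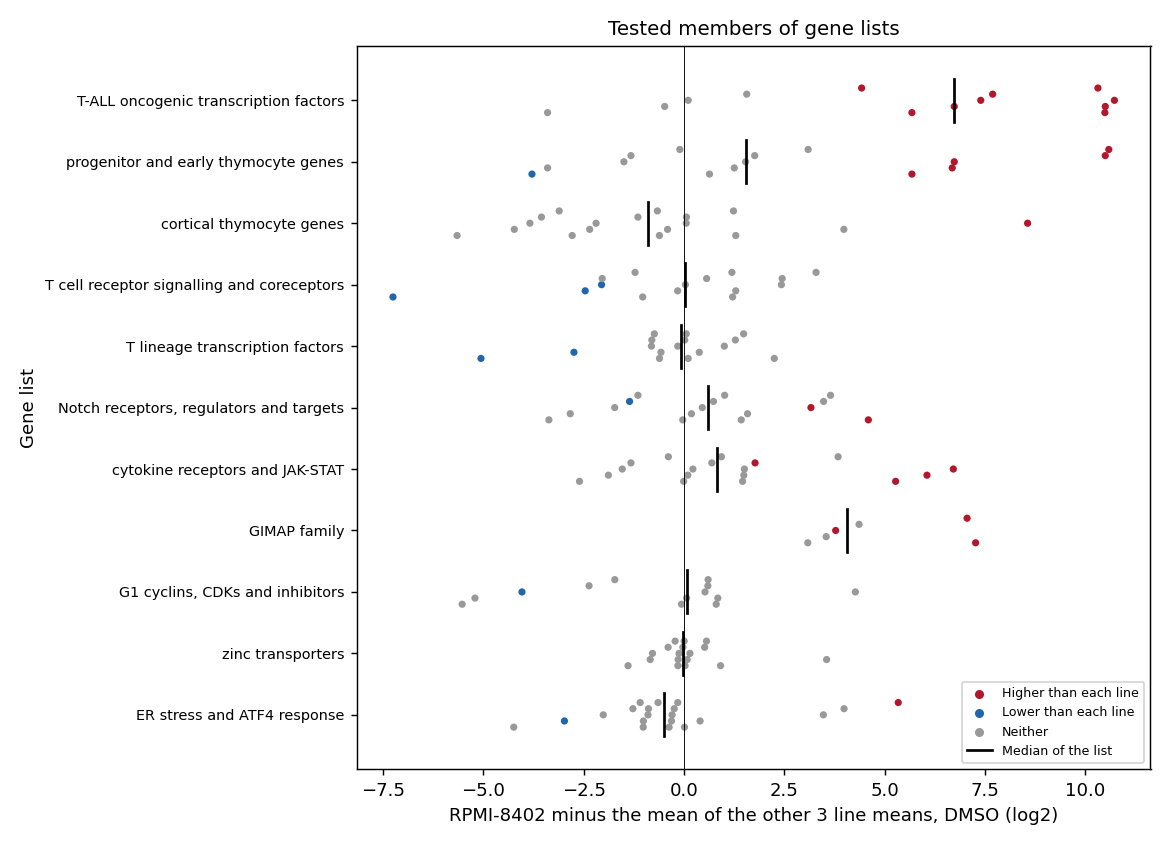
Difference of RPMI-8402 from the mean of the other 3 line means (log2, DMSO) for the tested members of 11 gene lists; each point is a gene, black bars mark list medians. Red points were set apart as higher, blue as lower; the T-ALL transcription factor list has 9 red points and its median at 6.74, with 7 of its 13 tested members in the plot only because RPMI-8402 was above the filter, and the cortical thymocyte list its median at −0.90.

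The Notch pathway, whose receptor NOTCH1 is often mutated in T-ALL, had 16 of 22 listed genes tested. Among these, 10 were called higher and 5 lower (9 and 5 without replicate 3), beside 37.8% and 35.3% over all genes. HES1 and JAG1 were set apart as higher and NOTCH2 as lower (median difference of the list 0.60). NOTCH1 measured 11.91, 12.09 and 11.85 in RPMI-8402, 11.49 to 11.82 in TALL-1 and 10.59 to 10.86 in P12-ICHIKAWA, and it stayed at 2.45 in SUPT11, which sets most of its difference of 3.65. HES1, a direct Notch target, measured 11.44, 11.41 and 11.53 in RPMI-8402, against 10.32, 10.34 and 10.44 in TALL-1, 5.17 on each SUPT11 array and 9.41, 9.34 and 9.30 in P12-ICHIKAWA (difference 3.17 ± 0.04; adjusted p = 2.63e-13). The repeated 5.17 in SUPT11 may be the HES1 probe set's own level of no signal. JAG1, a Notch ligand, measured 8.72, 8.38 and 8.47 in RPMI-8402 and 2.24 to 5.88 elsewhere. NOTCH2, named after its values were seen, measured 11.47, 11.38 and 11.57 in RPMI-8402 and 12.65 to 13.06 elsewhere. HEY1, another Notch target, was high in TALL-1 alone: it stood at 2.83, 2.70 and 2.69 in RPMI-8402, 12.20, 12.26 and 12.21 in TALL-1, 4.16, 3.66 and 3.59 in SUPT11 and 2.22, 2.36 and 2.26 in P12-ICHIKAWA.

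Cytokine signalling genes set apart in RPMI-8402 included STAT5A, SOCS2 and SOCS3. Of 22 listed genes, 18 were tested. Among these, 10 were called higher and 4 lower (10 and 5 without replicate 3), beside 37.8% and 35.3% over all genes. STAT5A, SOCS2, SOCS3 and CISH were set apart as higher (median difference of the list 0.82). STAT5A measured 12.27, 12.24 and 12.18 in RPMI-8402, against 3.26, 3.20 and 3.19 in TALL-1, 2.51, 2.51 and 3.35 in SUPT11 and 10.78, 10.55 and 10.31 in P12-ICHIKAWA (difference 6.71 ± 0.17). SOCS2 measured 11.48, 11.25 and 11.55 in RPMI-8402 and at most 9.72 elsewhere, and SOCS3 8.79, 8.63 and 8.82 against at most 6.49. SOCS3 lay at the floor in SUPT11 and P12-ICHIKAWA, and none of its 3 other probe sets passed the filter on low values. CISH, named after its values were seen, was low (3.56, 4.54 and 4.89 in RPMI-8402) and was not set apart without replicate 3. IL7R, the interleukin-7 receptor, depended on 1 array: it measured 2.53, 2.92 and 6.97 in RPMI-8402, against 11.32 to 11.59 in TALL-1, the floor in SUPT11 and 2.53 to 3.14 in P12-ICHIKAWA. With replicate 3 its difference was −1.32 and not called (adjusted p = 0.133), and without it −2.73 (adjusted p = 2.43e-07).

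The GIMAP genes, a cluster of GTPases on chromosome 7 that act in lymphocyte survival, were all called higher in RPMI-8402 where tested (6 of 7 listed). Over all genes, 37.8% were called higher. GIMAP4, GIMAP7 and GIMAP8 were set apart (median difference of the list 4.07). GIMAP4 measured 10.84, 10.76 and 10.92 in RPMI-8402, against 5.47, 4.05 and 4.83 in TALL-1, 2.19 to 2.25 in SUPT11 and 4.48, 4.86 and 3.71 in P12-ICHIKAWA. GIMAP8 measured 10.68, 10.38 and 10.46 in RPMI-8402 and at most 5.93 elsewhere. GIMAP1 did not separate the lines in this way, with 9.96, 9.74 and 9.82 in RPMI-8402 and 9.70 to 9.84 in TALL-1. The GIMAP members share sequence, so their probe sets may cross-detect, which was not tested.

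Among cell cycle genes, CCNE1 was lower in RPMI-8402 than in each line, and CDKN2A and MTAP were at or near the floor in RPMI-8402 and P12-ICHIKAWA. Of 18 listed G1 genes, 13 were tested, 6 were called higher, 4 lower and CCNE1 was set apart as lower (median difference 0.068). CCNE1, the cyclin that drives S phase entry, measured 7.45, 7.69 and 7.53 in RPMI-8402, against 11.67, 11.55 and 11.43 in TALL-1, 12.06, 12.21 and 12.33 in SUPT11 and 11.07, 11.02 and 10.96 in P12-ICHIKAWA (difference −4.04 ± 0.07; adjusted p = 2.83e-12). CDKN2A, the tumour suppressor of chromosome 9 that is often deleted in T-ALL, measured 2.28 on all RPMI-8402 arrays and 2.23 to 2.28 in P12-ICHIKAWA, against 9.85 to 10.22 in TALL-1 and 10.97 to 11.22 in SUPT11. Its neighbour MTAP was at the floor in the same pair of lines and at 9.54 to 10.62 in the others. CCND2 measured 6.05, 5.78 and 8.75 in RPMI-8402, the floor in TALL-1 and 11.49 to 13.97 in SUPT11 and P12-ICHIKAWA, with a difference of −2.36 with replicate 3 and −3.31 without it. AKT1, the only member of the PI3K list set apart (11 of 17 listed were tested, 2 higher and 6 lower, or 2 and 5 without replicate 3, median −0.22), measured 9.43, 9.53 and 9.53 in RPMI-8402 and 10.72 to 12.03 elsewhere.

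Several other genes with the widest gaps were on in RPMI-8402 and off elsewhere. CDH2, which encodes N-cadherin, measured 12.59, 12.61 and 12.54 in RPMI-8402 and 2.18 to 3.09 elsewhere. EHD2 of plasma membrane caveolae measured 12.94, 12.82 and 13.03, and the small GTPase RAB13 12.13, 11.89 and 12.26, with the other lines at 2.18 to 2.41. The transmembrane protein gene TMEM132C (12, 12.06 and 12.17), the adaptor SORBS2 (12.01, 11.85 and 12.35) and the neuropeptide gene ADCYAP1 (12.12, 12.06 and 11.94) were at the floor in every other line. COL1A1, a fibroblast collagen, measured 7.87, 7.88 and 7.35 in RPMI-8402 and 2.18 to 3.54 elsewhere, but the other 9 stromal and epithelial markers did not pass the filter, and that list summed to 5.17 to 5.70 above the floor in RPMI-8402, against 0.00563 to 1.37 in the other lines. ATP10D joined ATP9A among 13 tested flippase genes of 16 listed (5 higher, 7 lower, median −0.41), at 8.72, 8.27 and 8.49 in RPMI-8402 and 2.32 to 6.28 elsewhere, while ATP8A2 and ATP8B3 were set apart as lower. NCAM1, which NK cells and neurons carry, measured 7.23, 6.05 and 6.48 in RPMI-8402 and 2.18 to 2.21 elsewhere.

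In other lists, DNMT3A, DNMT3B, HLA-B, HLA-C and ATF3 were set apart as higher and SESN2 as lower. Beside the counts of called genes that follow, 37.8% of all tested genes were called higher and 35.3% lower. Of 18 DNA and histone methylation regulators, all were tested, 9 were called higher (7 without replicate 3) and 2 lower, and the de novo methyltransferases DNMT3A and DNMT3B were set apart as higher (median difference 0.16). DNMT3A measured 13.83, 13.81 and 13.89 in RPMI-8402 and 12.06 to 12.79 elsewhere, and 1 of its other 2 probe sets pointed the other way; DNMT3B measured 11.38, 11.37 and 11.32 against 10.02 to 10.50. Of 20 HLA and antigen processing genes, 12 were tested, 9 were called higher and 1 lower, with HLA-B and HLA-C set apart as higher. HLA-B measured 11.03, 11.05 and 11.85 in RPMI-8402 and 9.17 to 9.98 elsewhere, so replicates 1 and 2 lay above the other lines too, but without replicate 3 the list had 7 higher and 0 lower genes and HLA-C was no longer set apart. In the ER stress and ATF4 list, 15 of 20 tested genes were called lower (13 without replicate 3) and 4 higher (median difference −0.51), with SESN2 set apart as lower and ATF3 as higher. ATF3, a stress-induced factor, measured 10.12, 10.30 and 10.15 in RPMI-8402 and 2.39 to 7.67 elsewhere, and ASNS, the asparagine synthetase, 5.12, 5.74 and 4.49 in RPMI-8402 and 5.46 to 13.25 elsewhere.

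The zinc transporters, which include the target of NVS-ZP7-3, had no member set apart. Of 19 listed genes, 17 were tested; 5 were called higher and 6 lower (3 and 6 without replicate 3), with a median difference of −0.027. SLC39A7, the target itself, measured 9.60, 9.61 and 9.38 in RPMI-8402, 9.37, 9.07 and 9.21 in TALL-1, 9.82, 9.79 and 9.81 in SUPT11 and 10.23, 10.04 and 9.72 in P12-ICHIKAWA. RPMI-8402 lay inside the range of the others, with a difference of −0.14 ± 0.10 (adjusted p = 0.224). On the NVS-ZP7-3 arrays its difference was 0.58 (adjusted p = 5.43e-06). The means there were 10.85 in RPMI-8402, 10.99 in TALL-1, 9.85 in SUPT11 and 9.98 in P12-ICHIKAWA. RPMI-8402 thus lay below TALL-1 and above SUPT11 and P12-ICHIKAWA. SLC30A4, a zinc exporter of vesicles, was high in RPMI-8402 (11.10, 10.99 and 10.98) and SUPT11 (11.32 to 11.37), at 8.33 to 9.02 in P12-ICHIKAWA and 2.18 to 2.61 in TALL-1. Of the 10 genes of the metallothionein list, 7 were tested, 3 were called higher and MT1G was set apart (8.81, 8.64 and 9.10 in RPMI-8402, 6.62 to 7.99 elsewhere); these genes are near-identical copies, so the probe set may read several.

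The remaining lists gave few set-apart genes. In the BCL2 family, 10 of 15 listed genes were tested (3 higher, 4 lower, median −0.18), and BCL2 itself measured 10.23, 10.26 and 10.21 in RPMI-8402, 11.91 to 12.83 in TALL-1 and P12-ICHIKAWA and 2.18 to 2.25 in SUPT11. BIK, a proapoptotic member, measured 9.34, 9.55 and 9.37 in RPMI-8402 and 2.18 to 8.52 elsewhere; it was set apart, but not without replicate 3. Of 19 homing genes, 14 were tested (7 higher and 7 lower, median 0.078; 6 and 7 without replicate 3), and the integrin ITGAL measured 6.89, 6.96 and 7.80 in RPMI-8402 and 8.29 to 11.33 elsewhere. Of 19 pluripotency-linked and germline genes, 18 had a probe set and 5 were tested; L1TD1 and DNMT3B were set apart as higher, and LIN28B was shared with SUPT11 and P12-ICHIKAWA. In the actomyosin list, 16 of 20 were tested, with 10 higher and 5 lower (median 1), and LIMCH1 was the only one set apart. None of the 16 measured cancer-testis antigens (21 listed) was tested.

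Several widely expressed genes were at or near the floor in RPMI-8402 alone. PEBP1, which encodes the RAF kinase inhibitor protein, measured 2.21, 2.20 and 2.51 in RPMI-8402, against 13.98, 13.89 and 13.95 in TALL-1, 14.14, 14.10 and 14.13 in SUPT11 and 13.85, 13.82 and 13.77 in P12-ICHIKAWA (difference −11.65 ± 0.06; adjusted p = 2.30e-16). Both other PEBP1 probe sets pointed the same way. UBLCP1, a phosphatase that acts on the proteasome, measured 2.18, 2.18 and 3.39 in RPMI-8402 and 12.86 to 13.56 elsewhere, and the histone gene H3C3, which has near-identical copies, 2.20, 2.20 and 3.12 against 12.67 to 13.66. The ceramidase ACER3 (2.22, 2.18 and 2.37), the zinc-finger gene ZNF512 (2.56, 2.50 and 2.34) and SEPTIN8 (2.68 on each array) were as low, with other lines at 9.52 or above. The glycerol phosphate dehydrogenase relative GPD1L (2.63, 2.18 and 2.20) and P2RY10, a lipid-mediator receptor of lymphocytes (2.39, 2.18 and 2.84), were low as well. HCLS1, a cortactin relative of blood cells, measured 3.20, 2.60 and 7.27 in RPMI-8402 and 12.36 to 13.54 elsewhere; GSTK1, a glutathione transferase, 2.18, 2.18 and 5.17 against 11.13 to 12.99; and CRYBG1, 2.39, 2.39 and 3.15 against 10.24 to 12.73. For PEBP1, UBLCP1, H3C3, P2RY10, ACER3, HCLS1, GSTK1, CRYBG1 and FYB1 the highest RPMI-8402 value was on replicate 3, the array with blood cell transcripts; the part of those transcripts was not tested.

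Differences also ran together along chromosomes. Tested genes were placed in the order of a RefSeq table, and medians were taken over 31 neighbours; the windows below were picked after their values were seen and are described with no test. Across 9724 windows the 5th and 95th percentiles of the median difference were −0.44 and 0.49. The lowest window, from HMGN3 to BACH2 on chromosome 6, had a median of −1.47, with −1.42 against TALL-1, −1.41 against SUPT11 and −1.35 against P12-ICHIKAWA. Of its 31 genes, 29 were lower in RPMI-8402 than the mean of the other lines, 28 were lower than each line and 13 were set apart. The highest, from NINJ2 to NOP2 on chromosome 12, had a median of 1.19, with 0.83 against TALL-1, 1.32 against SUPT11 and 1.05 against P12-ICHIKAWA, and 29 of its 31 genes were higher than the mean of the others. A stretch of chromosome 14 from NEK9 to TDP1 had a median of −0.985 (−1.13, −1.14 and −0.68 against TALL-1, SUPT11 and P12-ICHIKAWA). On the NVS-ZP7-3 arrays the medians were −1.31, 1 and −1.06 in the windows of chromosomes 6, 12 (30 genes there) and 14. Chromosome 4, which holds LIMCH1, SORBS2 and ATP10D, had 42 of 404 tested genes set apart as higher (10.4%, beside 4.89% over all genes). It is named because its share was the highest of all chromosomes, the next being chromosome 12 with 7.16%.

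**Figure D5:**
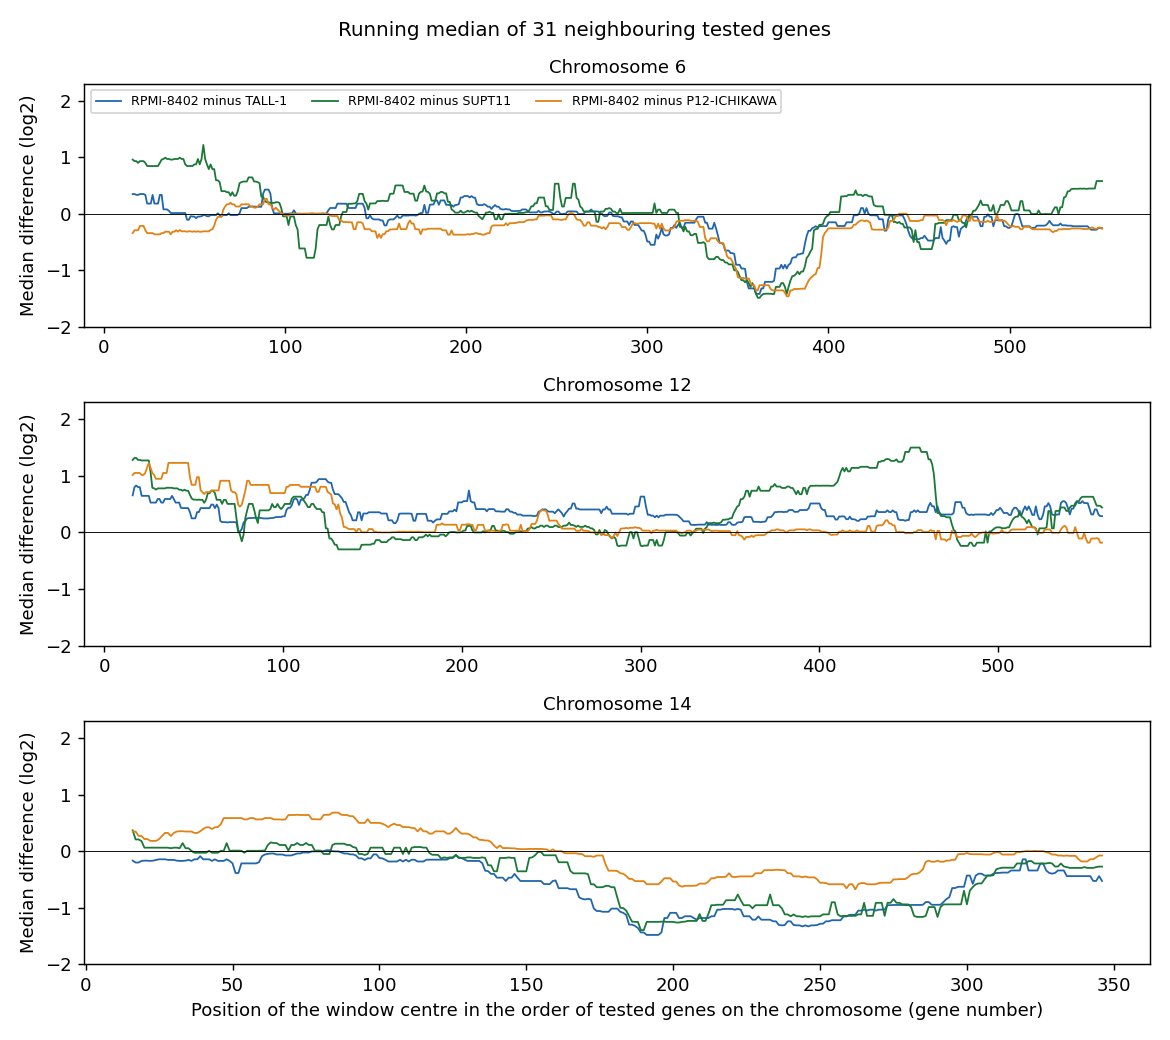
Running median over 31 neighbouring tested genes of RPMI-8402 minus each other line (log2, DMSO) along chromosomes 6, 12 and 14, by gene order. The 3 lines dip together near −1.4 on chromosome 6, lie above 0 together at the left end of chromosome 12, and lie below 0 together to the right of the middle of chromosome 14, where the curve against P12-ICHIKAWA is nearest to 0 and was above 0 further left.

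The pattern of RPMI-8402 was largely the same on arrays the baseline comparison did not use. On the 12 NVS-ZP7-3 arrays, 77.6% of 10458 genes were called between RPMI-8402 and the mean of the other lines, 509 genes were set apart as higher (4.87%) and 337 as lower (3.22%). The higher genes shared 416 with the baseline set, 81.4% of the baseline set and 81.7% of the NVS-ZP7-3 set. The lower genes shared 241, 84.9% and 71.5%. Most named genes were picked for large baseline differences, so their sign could hardly change, and the share over all called genes was not computed. Of 134 named genes called at baseline and tested here, 132 had the same sign. The exceptions were the chemokine receptor CCR9, with a difference of 2.90 at baseline and −1.46 on NVS-ZP7-3 arrays (adjusted p = 4.14e-05), and RAG1, with 1.24 and −2.09 (adjusted p = 0.198); whether the 2 differences of a gene differ was not tested for them. RAG1 rested on single arrays: with NVS-ZP7-3 it measured 6.75, 6.75 and 5.94 in RPMI-8402, 2.24, 9.15 and 2.95 in TALL-1, 4.73, 9.28 and 4.12 in SUPT11 and 14.83 to 14.95 in P12-ICHIKAWA. Its difference was −1.36 without TALL-1 replicate 2 and −1.55 without SUPT11 replicate 2, a check added after seeing the data. These arrays held further transcripts that were low on the other NVS-ZP7-3 arrays of their line. CCND2 measured 7.79 on TALL-1 replicate 2, against 2.18 and 2.97. CDK6 measured 9.53 on SUPT11 replicate 2, against 4.72 and 4.35. The source of these transcripts was not tested. TAL1 kept its difference (10.31 on NVS-ZP7-3 arrays and 10.32 at baseline), with a change of −0.0040 ± 0.097, as did ATP9A (0.024 ± 0.062) and HHEX (0.085 ± 0.098). LMO1 measured 7.49, 8.16 and 7.78 on the RPMI-8402 NVS-ZP7-3 arrays, below its 3 baseline arrays. HBB was also above the floor there, at 10.48, 8.63 and 12.99. Blood transcripts were not limited to RPMI-8402 with NVS-ZP7-3. The summed erythroid list was 19.2, 15.6 and 15.5 in P12-ICHIKAWA, 8.77, 17.3 and 11 in SUPT11 and 15.2, 9.35 and 9.51 in TALL-1. On the DMSO arrays of these lines it was 8.7 to 10.0.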

How the data were processed

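Log2 expression of 54675 probe sets on 24 arrays was deposited by the authors as 1 table. Per the submitters' processing notes, GCRMA and limma were used, and no version is given. Per the labels' protocols, RNA was isolated with a Qiagen RNeasy kit and labelled by the Affymetrix 3' Plus protocol. GCRMA sets undetected probe sets near a floor (2.18 at the lowest), and some probe sets may have a higher one. Arrays give no read depth: precision is limited by how many arrays there are and by how far a signal lies above that floor.

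Probe sets were named from the platform annotation, with symbols updated through a RefSeq table of GRCh38.p14: 41097 had 1 gene, 1801 several and 11777 none, and 41043 matched the table while 54 kept the old symbol. Each of 19775 genes was represented by its brightest probe set, judged by the mean of the 24 arrays (10523 had more than 1). For some named genes no other probe set passed the filter, among them ATP9A, COL1A1, CCNE1, GIMAP8, NOTCH1, ASNS, MT1G and SLC30A4. Genes at log2 4 or more on at least 3 DMSO arrays were tested (10443). The 4 line means were estimated in R 4.3.3 using limma 3.58.1 and its lmFit and eBayes functions, with 8 residual degrees of freedom, and Benjamini-Hochberg adjustment ran over every tested gene. The NVS-ZP7-3 arrays were fitted in the same way. Changes of a difference between treatments came from a fit of all 24 arrays. The fit was tested on simulated data.

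Named genes were the 5 markers, the 16 genes furthest above and the 12 furthest below the nearest other line without overlap of arrays, up to 5 called members of each list with the largest differences, and a set of key genes. Named outside this rule, after their values were seen, were TCF3, CD3D, BCL11B, MEIS1, CD7, LAT, NOTCH2, CISH, LYZ, HBB and MPO. Members and lists were chosen with earlier results of these data known. XIST and Y-linked genes were left out. Alternatives covered the filter, probe set choice, normalization, centring, threshold, spread model, array weights, the replicate number as a block, and each array left out.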

Additional observations from a re-analysis of the deposited data

Results flagged for a closer look

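LIMCH1 and L1TD1 stood out because their difference between RPMI-8402 and the mean of the other lines was not the same with NVS-ZP7-3 as with DMSO, by a test of that change in limma over all 24 arrays. LIMCH1 measured 12.53, 12.73 and 12.67 on the RPMI-8402 NVS-ZP7-3 arrays, against 13.58, 13.61 and 13.60 with DMSO, and its difference changed by −0.954 ± 0.0453 (SE; adjusted p = 2.49e-11). L1TD1 measured 12.05, 12.11 and 12.22 with NVS-ZP7-3, against 13.22, 13.30 and 13.13 with DMSO, and its difference changed by −1.09 ± 0.0496 (adjusted p = 1.44e-11). Both genes were lower on all 3 RPMI-8402 NVS-ZP7-3 arrays than on all 3 DMSO arrays. The other 3 lines lay at the floor for both genes, so the change is that of RPMI-8402 alone.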

How the results depend on the processing

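The counts of called and set-apart genes stayed within 1.5 times their values under the alternatives run, except for a stricter minimum difference: with 2 in place of 1, 332 genes were set apart as higher and 119 as lower. Set-apart counts otherwise ranged from 423 to 570 higher and, with quantile normalization at the top, from 194 to 416 lower. With each array left out in turn, 500 to 518 genes were set apart as higher and 278 to 293 as lower, and the genes called against the mean of the other lines numbered 7034 to 7648 (6790 to 7275 against TALL-1, 7811 to 8262 against SUPT11, 5963 to 6594 against P12-ICHIKAWA, and 7597 to 8163 on the NVS-ZP7-3 arrays). Asking for a gap of at least 1 between arrays, chosen after seeing the data, left 427 higher and 194 lower genes. Leaving out RPMI-8402 replicates 1 and 3 together, also chosen after seeing the data, kept 496 of the higher and 257 of the lower genes; the lone array is then assumed to vary like the other groups. Neighbour windows of 21 and 51 genes, chosen after seeing the data, had lowest medians of −1.51 and −1.13 on chromosome 6 and highest medians of 1.20 and 1.05 on chromosome 12.

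With the replicate number as a block, 7584 genes were called and 510 and 284 were set apart. The numbers did not pair the arrays: deviations of same-numbered arrays correlated at −0.355 to 0.21 over 18 pairs, and 5 of 12 arrays correlated best with their own number.

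Of 138 named genes tested, 8 changed side or sign under some alternative. With the mean of all probe sets of a gene, 3 reversed: BCL2 (−0.31), IGHM (−0.57) and RAG1 (−0.029); the cause was not tested. The others were IL7R, BCL2L1, SLC39A3, SLC39A7 and MT1H. Genes near the floor carry the least information.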
